A study of Mus musculus with 8 samples.

Results

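The genotype dependence of the response to 4-phenylbutyrate (PBA) was measured in mouse pancreatic islets as an interaction, the PBA change in islets of hIAPP transgenic mice minus the PBA change in wild-type islets. All 8 arrays of the series entered it, 2 for each of 4 groups, and it was computed for all 17097 genes named by the arrays. The 4 groups were untreated wild type, PBA-treated wild type, untreated hIAPP and PBA-treated hIAPP. Every sample carries the same strain label, FVB/N-Tg(Ins2-IAPP)RFHSoel/J, also the wild-type ones. Islets were taken at an age of 20 weeks, and the treated mice had received PBA in their drinking water at 1 g/kg/day for 12 weeks from an age of 8 weeks. As the strain name gives it, an Ins2 promoter drives the transgene, so the human peptide is made in beta cells. Whether the paired arrays of a group come from different animals or from pooled islets is not given, and p-values then reflect the spread between these arrays only, which may be technical. They name a single transgenic line. No probe set for the human transgene was used here, so the genotype of each array was taken from its label.

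Human islet amyloid polypeptide is a beta-cell hormone that folds into amyloid, which the mouse form does not do. PBA is used as a chemical chaperone that eases protein folding in the endoplasmic reticulum (ER), and it also inhibits histone deacetylases and scavenges nitrogen. The comparison asks whether the drug acts on gene expression differently where the amyloid-forming peptide is present, with treated wild-type islets as the background for the effect of the drug itself.

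Values are log2 expression. A level under 4.68, the 95th percentile of the non-specific control probes, is called near background (their median was 3.1). Ins2 was at 14.0 to 14.1 on all 8 arrays, and the glucagon gene Gcg, the somatostatin gene Sst and the pancreatic polypeptide gene Ppy were between 12.5 and 13.6, so the hormone genes that define islets were at the top of the scale on every array. The median of all genes was 5.9 on both untreated hIAPP arrays and 5.7 on the other 6. Hybridisation spikes were at 7.1 (median) in PBA-treated wild type 1, against 9.8 to 10.2 elsewhere. RNA of exocrine tissue was present on every array. The median level of 28 measured acinar genes, of 34 listed, was 12.05 and 10.4 in untreated wild type, 11.65 and 10.5 in treated wild type, 10.95 and 12.25 in untreated hIAPP, and 8.0 and 9.8 in treated hIAPP islets. Less RNA per cell and fewer cells of a type cannot be told apart in whole islets.

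More genes passed the threshold for a PBA change in hIAPP than in wild-type islets, and most of the genes whose response differed were lower after treatment in hIAPP islets. The interaction passed the threshold (limma, adjusted p under 0.05) for 335 genes (1.96% of those tested), 289 below 0 (1.69%) and 46 above 0 (0.269%). The PBA change itself passed for 1384 genes in hIAPP islets (8.09%), 304 higher (1.78%) and 1080 lower (6.32%), and for 50 in wild-type islets (0.292%). Of the 1384, 295 also passed for the interaction, as did 25 of the 50. The other genes that passed in a single genotype were not shown to differ between the genotypes.

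The 335 genes fell into 4 kinds by their change in each genotype, where a change counts at an unadjusted limma p under 0.05. There were 192 genes (57.3% of the 335, 1.12% of all genes) that changed in hIAPP islets only, 182 of them lower and 10 higher with PBA. In 96 genes (28.7% of the 335, 0.562% of all) the changes were opposite, 71 lower in hIAPP and higher in wild-type islets, and 25 the other way. Another 17 (5.07%) changed in wild-type islets only, 8 higher and 9 lower. In 30 (8.96%) both genotypes changed the same way, always lower, and in 28 of these the change was larger in hIAPP islets. Over all genes tested, 210 (1.23%) had opposite changes at that p and 513 (3%) had changes of one sign. Both PBA changes make up the interaction, so the kinds are a description and not a further test.

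**Figure D1:**
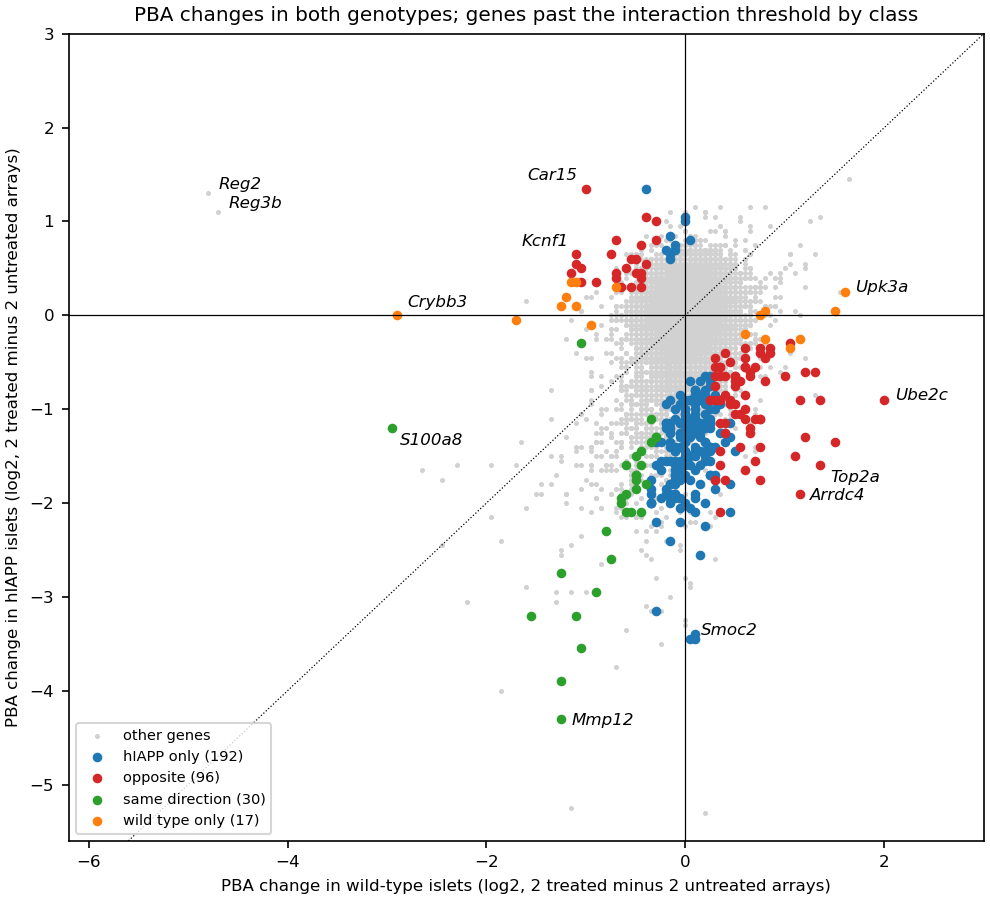
PBA change of each of the 17097 genes in wild-type islets (horizontal, log2) against its change in hIAPP islets (vertical, log2), with genes past the interaction threshold coloured by kind and the dotted line marking equal changes. Most coloured genes lie below the dotted line, with the 192 hIAPP-only genes along the vertical axis and 71 opposite genes at the lower right. Reg2 and Reg3b, far to the left, did not pass.

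The number of genes past the threshold depended on each array. It was 0 without wild type 1, wild type 2, PBA-treated wild type 1, hIAPP 1, hIAPP 2 or PBA-treated hIAPP 1, it was 1 without PBA-treated wild type 2 (Col8a1, there counted as opposite and not as hIAPP-only), and it was 3 without PBA-treated hIAPP 2 (Arrdc4, Fbln5 and Iigp1). In these 8 limma fits 2252 to 3252 genes had an unadjusted p under 0.05, against 2777 with all arrays. With a covariate for the acinar level of the arrays 4 genes passed, Arrdc4, Iigp1 and Mmp12 below 0 and Reg2 above 0. After centring each array on its median, which moved the median interaction of all genes by 0.20, 258 genes passed, 143 below and 115 above 0. The share below 0 was 86.3% before and 55.4% after centring.

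Genes of the opposite kind included genes of dividing cells. They were higher with PBA in wild-type islets and lower with PBA in hIAPP islets. Top2a, a topoisomerase of dividing cells, was at 3.4 and 3.2 in untreated and 4.4 and 4.9 in treated wild-type islets, and at 5.8 and 5.4 in untreated and 3.9 and 4.1 in treated hIAPP islets. The treated arrays thus lay above the untreated ones in wild type and below them in hIAPP, and the treated groups of both genotypes lay between the untreated ones. Both wild-type means of Top2a (3.30 untreated, 4.65 treated) and its treated hIAPP mean (4.00) were near background. Its PBA change was 1.35 in wild type and -1.60 in hIAPP islets, an interaction of -2.95 (SE 0.29, adjusted p = 0.0099). Leaving out 1 array at a time gave -3.20 to -2.70. Its other 2 probe sets had interactions of -0.20 and -0.15, and the mean of its probe sets gave -1.10, which passed.

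Ube2c, a ubiquitin-conjugating enzyme of mitotic exit, was at 3.7 and 3.4 without and 5.4 and 5.7 with PBA in wild type, and at 5.4 and 5.7 without and 4.5 and 4.8 with PBA in hIAPP islets. Its treated wild-type arrays had the same 2 values as its untreated hIAPP arrays. Its means in untreated wild type (3.55) and in treated hIAPP islets (4.65) were near background. It rose by 2.0 in wild type (adjusted p = 0.0189) and fell by 0.90 in hIAPP islets (adjusted p = 0.0260), with an interaction of -2.90 (SE 0.26, adjusted p = 0.0077; limma).

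Mki67, the marker of cycling cells, was at 4.3 and 3.8 without and 5.3 and 5.0 with PBA in wild type, and at 6.4 and 6.3 without and 4.8 and 4.9 with PBA in hIAPP islets (interaction -2.60, SE 0.26, adjusted p = 0.0099). The 2 genotypes were apart before treatment and within 0.5 of each other after it. Cdk1, the kinase of entry into mitosis, was at 4.2 and 3.5 without and 5.1 and 5.3 with PBA in wild type, and at 6.1 and 5.8 without and 5.2 and 4.9 with PBA in hIAPP islets (interaction -2.25, SE 0.34, adjusted p = 0.0287). Again no treated array overlapped an untreated one of its genotype. Untreated wild type was near background in Mki67 (mean 4.05) and Cdk1 (mean 3.85).

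Pbk, a mitotic kinase gene, had an interaction of -2.85 (SE 0.32, adjusted p = 0.0153), with changes of 1.5 in wild type and -1.35 in hIAPP islets. Cks2, a subunit of cyclin-dependent kinases, had one of -2.50 (SE 0.27, adjusted p = 0.0134), with changes of 1.20 and -1.30. The untreated wild-type mean of Pbk was near background (4.35). Top2a, Pbk, Cks2, Mki67, Arrdc4 and Car15 were the 6 genes of the opposite kind that moved by at least 1 (log2) in both genotypes. A smaller change of at least 0.5 was seen in 47 of the 96.

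The cell cycle list held 30 measured genes of 31. Its median interaction was -0.60, with a median PBA change of 0.30 in wild type and -0.33 in hIAPP islets, against 0.00 for all genes in each case. In 26 of the 30 the interaction was below 0, and 17 were lower in hIAPP and higher in wild type. Of all 17097 genes, 7596 and 2834 were so. The interaction passed for 5 genes, all below 0 (1.69% of all genes passed below 0). These were Top2a, Mki67, Cdk1 and the anaphase activator Cdc20, all of the opposite kind, and the cell cycle inhibitor Cdkn1a, which changed in hIAPP islets only (interaction -1.05, SE 0.16, adjusted p = 0.0287). Cyclin B2, Ccnb2, changed by 1.30 in wild type and by -0.85 in hIAPP islets and did not pass (adjusted p = 0.0527). The list's median level was 4.40 and 4.25 in untreated and 5.10 and 4.90 in treated wild type, and 5.30 and 5.50 in untreated and 4.8 and 4.8 in treated hIAPP islets. The treated groups of both genotypes lay between the untreated ones, and 14 of the 30 genes had a mean near background. Further genes of dividing cells of the opposite kind were Stmn1, Ckap2, Cenpa, Pttg1, Mad2l1, Pclaf and Tpx2, which were picked after their values were seen, with interactions of -2.25 in Cenpa to -0.90 in Tpx2.

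**Figure D2:**
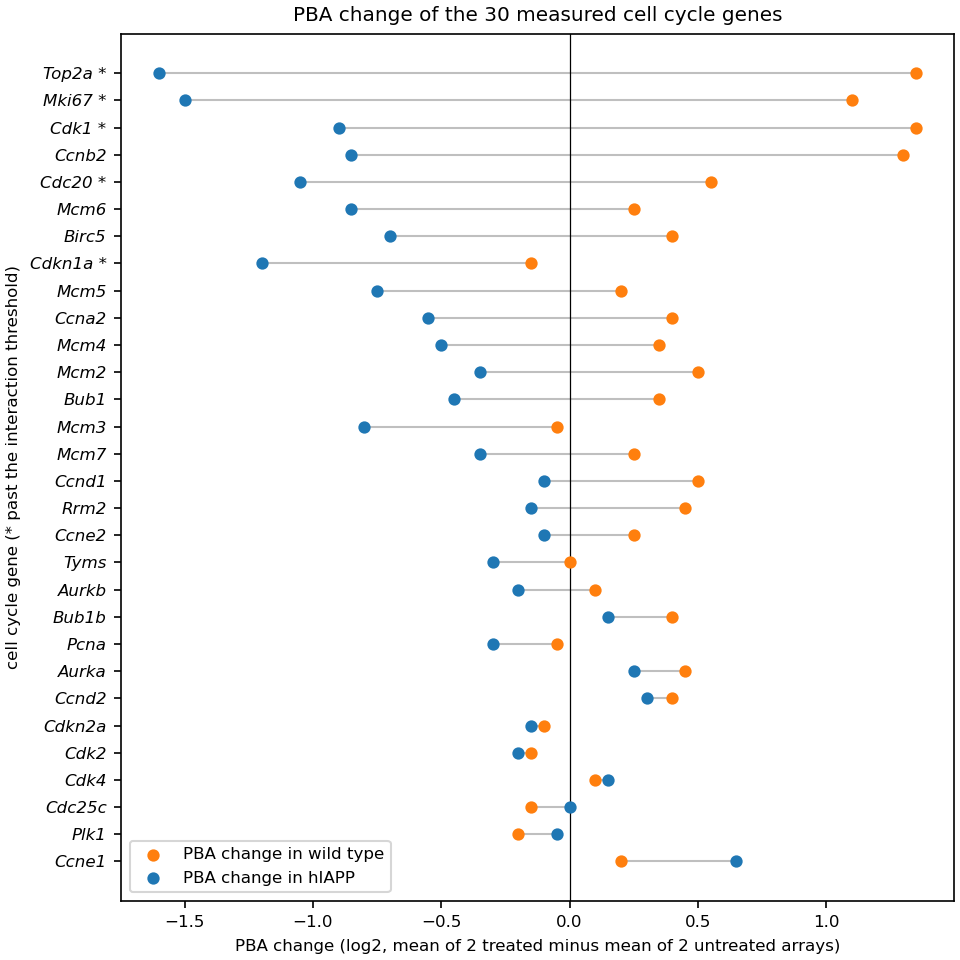
PBA change (log2, mean of 2 treated minus mean of 2 untreated arrays) of each of the 30 measured cell cycle genes in wild-type islets (orange) and hIAPP islets (blue), ordered by the interaction, with an asterisk at the 5 past its threshold. The blue point lies left of the orange one in 26 genes, and for 17 genes the pair lies on either side of 0.

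Promoters of 4 of these genes are shown because they moved together and because cell cycle promoters are known for CCAAT boxes and for the cell cycle homology region (CHR). Each sequence is the 250 bases before the start of the gene in RefSeq GRCm38.p6, read along the gene's strand. Capitals mark CCAAT, and the CHR letters TTTGAA or TTCGAA, on either strand, with adjoining or overlapping matches run together.
Top2a (chr11:99024190-99024439, minus strand): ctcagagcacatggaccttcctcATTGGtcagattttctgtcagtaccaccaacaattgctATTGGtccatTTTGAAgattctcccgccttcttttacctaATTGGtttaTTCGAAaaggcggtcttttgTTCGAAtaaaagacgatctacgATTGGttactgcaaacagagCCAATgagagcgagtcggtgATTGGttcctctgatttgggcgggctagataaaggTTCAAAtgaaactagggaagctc
Ube2c (chr2:164769679-164769928, plus strand): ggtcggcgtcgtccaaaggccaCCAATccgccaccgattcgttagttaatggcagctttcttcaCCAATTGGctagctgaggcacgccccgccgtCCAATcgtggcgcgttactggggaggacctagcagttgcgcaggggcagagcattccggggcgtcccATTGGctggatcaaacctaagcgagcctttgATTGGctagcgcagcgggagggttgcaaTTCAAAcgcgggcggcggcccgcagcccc
Cdk1 (chr10:69352913-69353162, minus strand): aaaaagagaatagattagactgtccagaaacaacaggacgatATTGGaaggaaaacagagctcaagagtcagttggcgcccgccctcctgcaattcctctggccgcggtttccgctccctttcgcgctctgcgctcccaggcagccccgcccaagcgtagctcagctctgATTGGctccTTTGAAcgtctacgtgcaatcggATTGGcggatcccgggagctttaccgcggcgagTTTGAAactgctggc
Mki67 (chr7:135716380-135716629, minus strand): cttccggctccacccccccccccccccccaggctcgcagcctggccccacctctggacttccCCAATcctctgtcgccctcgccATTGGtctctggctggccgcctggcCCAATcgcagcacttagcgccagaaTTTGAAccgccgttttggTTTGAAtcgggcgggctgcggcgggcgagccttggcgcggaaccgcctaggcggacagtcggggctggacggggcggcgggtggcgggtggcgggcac
The Top2a window held 6 CCAAT and 4 CHR matches, that of Ube2c 6 and 1, and those of Cdk1 and Mki67 3 and 2 each. Of 13605 tested genes with a promoter in the table, 35.9% had a CCAAT match, 13.3% a CHR match and 4.94% both. Of the 71 genes lower in hIAPP and higher in wild type, 54 had a promoter there, and 26 of these (48.1%) had CCAAT, 8 (14.8%) CHR and 8 (14.8%) both. A match is a description of the letters and not a site in use.

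Arrdc4, an arrestin-domain relative of the thioredoxin inhibitor Txnip, was at 4.9 and 4.7 without and 6.0 and 5.9 with PBA in wild type, and at 8.1 and 8.0 without and 6.0 and 6.3 with PBA in hIAPP islets. The genotypes differed widely before treatment and the treated arrays of both lay at 5.9 to 6.3. It rose by 1.15 in wild type (adjusted p = 0.0250) and fell by 1.90 in hIAPP islets (adjusted p = 0.0012), with an interaction of -3.05 (SE 0.19, adjusted p = 0.0054; limma). It was among the few genes past the threshold with the acinar covariate (-2.81, adjusted p = 0.0438).

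Txnip, which answers to glucose through the same transcription factor pair ChREBP and Mlx, had another pattern. It was at 10.10 ± 0.14 (SD, n = 2) without and 10.20 ± 0.14 with PBA in wild type, and at 11.90 ± 0.14 without and 10.45 ± 0.07 with PBA in hIAPP islets. The wild-type arrays of both treatments overlapped, and the treated hIAPP arrays came near them. The interaction was -1.55 (SE 0.18, adjusted p = 0.0169). Mlx itself was higher with PBA in hIAPP islets only (interaction 0.80, SE 0.15, adjusted p = 0.0462), and Klf10, a glucose-responsive transcription factor, was lower in both genotypes and more so in hIAPP islets (-1.5, SE 0.21, adjusted p = 0.0229). Of 12 genes of this list 4 passed (1.96% of all genes did), 1 above and 3 below 0. The list's median interaction was -0.08, which turned to 0.13 (above 0) after centring the arrays. The promoters of Arrdc4 and Txnip are shown over the same window, with capitals at the E-box letters CACGTG and the related CACGAG, searched on both strands, since ChREBP is known to bind pairs of E-box-like letters.
Arrdc4 (chr7:68749239-68749488, minus strand): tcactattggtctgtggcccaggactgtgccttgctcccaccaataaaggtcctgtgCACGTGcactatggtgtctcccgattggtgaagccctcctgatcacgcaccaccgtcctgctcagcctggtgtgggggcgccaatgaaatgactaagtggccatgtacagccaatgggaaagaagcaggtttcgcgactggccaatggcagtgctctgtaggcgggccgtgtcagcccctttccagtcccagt
Txnip (chr3:96557707-96557956, plus strand): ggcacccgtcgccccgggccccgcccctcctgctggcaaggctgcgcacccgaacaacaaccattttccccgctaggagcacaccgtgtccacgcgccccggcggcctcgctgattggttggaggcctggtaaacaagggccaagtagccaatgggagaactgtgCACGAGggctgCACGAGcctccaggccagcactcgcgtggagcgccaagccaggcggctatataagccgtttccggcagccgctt
The Arrdc4 window held 1 CACGTG and the Txnip window 2 CACGAG, letters found in 7.58% and 6.58% of the 13605 promoters.

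Other genes lower in hIAPP and higher in wild type included some of the interferon, stress and immediate early lists, of which few members passed. Iigp1, an interferon-induced GTPase, was at 6.3 and 6.2 without and 6.6 and 6.6 with PBA in wild type, and at 7.8 and 7.8 without and 5.7 and 5.7 with PBA in hIAPP islets. The treated hIAPP arrays were below every wild-type array. Its interaction of -2.45 (SE 0.13, adjusted p = 0.0035) had the smallest p of all genes. Rsad2, the antiviral protein viperin, had changes of 0.75 and -1.40 (interaction -2.15, SE 0.19, adjusted p = 0.0077). Of 20 interferon-stimulated genes 3 passed, all below 0 (1.69% of all genes), the third being Gbp2 in hIAPP islets only. The list's median interaction was -0.30.

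The orphan nuclear receptor gene Nr4a1 (-1.25, SE 0.17, adjusted p = 0.0216) and the transcription factor gene Klf4 (-1.25, SE 0.19, adjusted p = 0.0288) were of the opposite kind, and Nr4a3 of the hIAPP-only kind (-2.10, SE 0.26, adjusted p = 0.0172). They were the 3 of 20 immediate early genes that passed (1.96% of all genes did). The list's median interaction was -0.525, with 14 genes below 0 and 5 above (7596 and 8382 of all 17097 genes). For Nr4a3 untreated wild type was near background (3.65), and the mean of its probe sets gave -0.68, which did not pass. The stress genes Ddit4, an inhibitor of growth signalling, and Bag3, a co-chaperone of heat shock proteins, had interactions of -1.25 each. Ddit4 was the only one of 22 ATF4 and CHOP genes that passed (list median -0.125). Bag3 was the only one of 12 heat shock genes that passed (list median 0.125). Vnn1, a pantetheinase, was at -2.05 and Ndrg2, a gene of differentiation, at -1.85. Dusp4, a phosphatase of MAP kinases picked after its values were seen, rose by 1.30 in wild type and fell by 0.60 in hIAPP islets.

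In all 96 genes of the opposite kind no treated array overlapped an untreated one in either genotype. This was so for 13.7% of all genes, in which the 2 changes could have either sign, and for 43.5% in hIAPP and 28.5% in wild type taken alone. The kind was chosen by p-values from the same arrays, which favours such separation, so no support is drawn from it. Both changes passed after adjustment in 7 of the 96, namely Arrdc4, Ube2c, Stmn1, Ckap2 and Dusp4 downward in hIAPP islets and Erich6 and Actn3 upward. The hIAPP change passed in 74 and the wild-type change in 10. For most of the kind the wild-type side therefore rests on an unadjusted p. The lowest group mean was near background in 22 of the 96, and in 108 of the 335 genes past the threshold.

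The 71 genes lower in hIAPP and higher in wild type had started from different levels. Untreated hIAPP islets exceeded untreated wild-type islets in all 71, with a median difference of 1.15, and 68 of these differences passed (the background was 11% of all genes). Under PBA the median difference was -0.30 and 3 passed (0.415%). The median change was 0.60 in wild type and -0.90 in hIAPP islets. These comparisons share arrays with the interaction and are given side by side only.

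**Figure D3:**
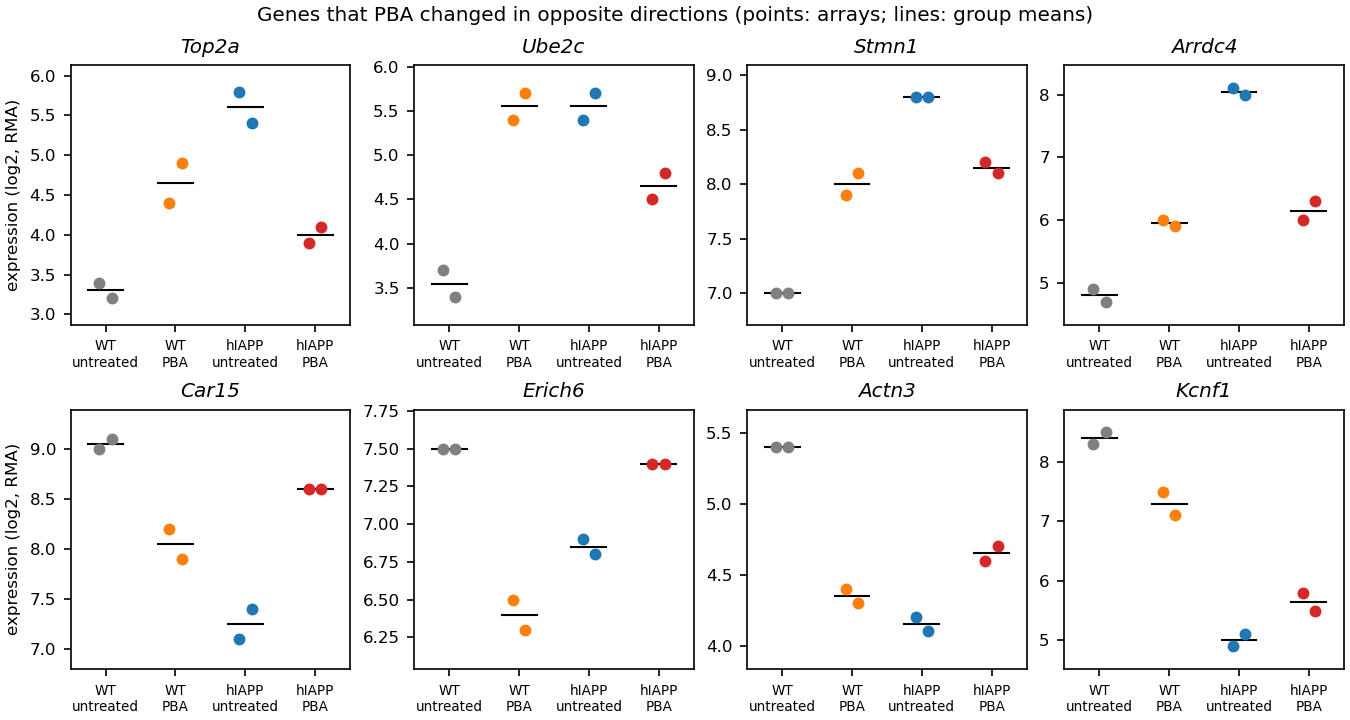
Expression (log2) on each array (points) with group means (lines) for 8 genes of the opposite kind, in untreated and PBA-treated wild-type and hIAPP islets, with a separate vertical scale in each panel. In Top2a, Ube2c, Stmn1 and Arrdc4 the treated wild-type arrays are higher and the treated hIAPP arrays lower than the untreated ones, and in Car15, Erich6, Actn3 and Kcnf1 the order is turned.

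The 25 genes higher in hIAPP and lower in wild type included genes of channels, enzymes and structural proteins. Car15, a carbonic anhydrase, was at 9.0 and 9.1 without and 8.2 and 7.9 with PBA in wild type, and at 7.1 and 7.4 without and 8.6 and 8.6 with PBA in hIAPP islets. The treated hIAPP arrays lay above the treated and below the untreated wild-type ones. It was 1.35 higher in hIAPP islets (adjusted p = 0.0030) and 1.00 lower in wild type (adjusted p = 0.0562), an interaction of 2.35 (SE 0.20, adjusted p = 0.0077; limma).

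Kcnf1, a silent subunit that modifies potassium channels, was at 8.3 and 8.5 without and 7.5 and 7.1 with PBA in wild type, and at 4.9 and 5.1 without and 5.8 and 5.5 with PBA in hIAPP islets (interaction 1.75, SE 0.25, adjusted p = 0.0247). Here the hIAPP arrays stayed below all wild-type arrays under both treatments. Erich6 was at 7.5 and 7.5 without and 6.5 and 6.3 with PBA in wild type, and at 6.9 and 6.8 without and 7.4 and 7.4 with PBA in hIAPP islets (interaction 1.65, SE 0.15, adjusted p = 0.0077). The order of the genotypes was thus turned by the treatment. Actn3, an actin-binding protein of fast muscle fibres, fell by 1.05 in wild type and rose by 0.50 in hIAPP islets (interaction 1.55, SE 0.14, adjusted p = 0.0077), from a level near background in hIAPP islets.

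The others named were Atp4a, the catalytic subunit of the gastric proton pump (1.5), Shisal2b (1.60), Pgap6 (1.40), Abraxas1 of DNA repair (1.15), the fatty acid elongase gene Elovl6 (1.10) and the cell adhesion gene Nfasc (1.10). Their adjusted p was at most 0.0395. With the mean of probe sets Pgap6 (0.77) and Abraxas1 (0.63) did not pass, and Nfasc passed at 0.73. The untreated hIAPP islets were below untreated wild type past the threshold in 23 of the 25 (3.19% of all genes). The median difference was -0.95. Under PBA it was 0.20, with 4 genes past the threshold (0.415% of all genes, either direction). Both comparisons share arrays with the interaction, so no support is drawn from them.

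The largest kind, of genes changed in hIAPP islets only, included 10 genes of the matrix list and 4 of the endothelial list, all lower with PBA. Smoc2, a matricellular calcium-binding protein, was at 4.0 and 4.2 without and 4.1 and 4.2 with PBA in wild type, and at 7.9 and 7.4 without and 4.1 and 4.3 with PBA in hIAPP islets. Only the untreated hIAPP arrays stood apart, and the other 6 were near background. It fell by 3.45 in hIAPP islets (adjusted p = 6.5e-04), with a wild-type change of 0.05 (95% interval -0.37 to 0.47) and an interaction of -3.50 (SE 0.25, adjusted p = 0.0071; limma).

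The microfibril gene Mfap5 was at 4.2 and 4.3 without and 4.2 and 4.2 with PBA in wild type, and at 7.0 and 7.3 without and 4.8 and 5.1 with PBA in hIAPP islets (interaction -2.15, SE 0.20, adjusted p = 0.0094). The treated hIAPP arrays stayed above the wild-type ones. Col8a1, a collagen of vessel walls, was at 5.6 and 5.5 without and 6.4 and 5.6 with PBA in wild type, and at 9.1 and 9.1 without and 7.0 and 7.0 with PBA in hIAPP islets (-2.55, SE 0.32, adjusted p = 0.0191). It too remained above wild type after treatment.

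In the matrix and stellate cell list, 11 of 26 measured genes passed, all below 0 (1.69% of all genes), and the median interaction was -1.23. Of the 11, 10 changed in hIAPP islets only, among them Postn, Lox, which crosslinks collagen, Col5a1, Col6a2, Col6a3, Fstl1, Timp1 and Sparc, and Acta2, the smooth muscle actin, was lower in both genotypes. The interaction was below 0 in 25 of the 26 (in 7596 of all 17097 genes) and 0 in Col12a1. The list's median PBA change was -0.15 in wild type and -1.48 in hIAPP islets. Its median level was 6.30 and 6.0 in untreated and 6.25 and 5.85 in treated wild type, and 9.0 and 8.90 in untreated and 7.10 and 7.20 in treated hIAPP islets. The fibrillar collagen genes Col1a1 and Col1a2 had interactions of -0.60 and -0.25 and did not pass (adjusted p = 0.42 and 0.46).

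Of 22 endothelial genes 5 passed, all below 0 (1.69% of all genes), with a median interaction of -0.78. Cdh5, the endothelial cadherin, had an interaction of -1.15 (SE 0.19, adjusted p = 0.0365), the angiopoietin receptor gene Tek one of -1.30 (SE 0.23, adjusted p = 0.0407), and the basement membrane collagen gene Col4a1 one of -1.30 (SE 0.16, adjusted p = 0.0169). Eng, a co-receptor of TGF-beta, and Vwf, a clotting protein of endothelial cells, were the other two. In treated hIAPP islets Cdh5 was at 5.9 and 6.0 and Tek at 6.1 and 6.5, within or below the wild-type range of 6.0 to 6.3 and 6.3 to 6.8. The endothelial growth factor receptors Kdr and Flt1 had interactions of -0.50 and -0.20 and did not pass (adjusted p = 0.14 and 0.55).

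The remaining genes with the largest falls in hIAPP islets and almost no wild-type change were of several functions. The cytokine-like gene Cytl1 was at 4.5, 4.3, 4.2 and 4.8 over the 4 wild-type arrays, and at 6.9 and 7.2 without and 3.4 and 3.8 with PBA in hIAPP islets. Its treated hIAPP arrays lay below all others. All its group means but that of untreated hIAPP were near background (4.40 and 4.50 in wild type, 3.60 in treated hIAPP islets). Its interaction of -3.55 (SE 0.32, adjusted p = 0.0077) was the lowest of the 335. Cck, the hormone cholecystokinin, was at 2.9 to 3.3 in wild type, at 6.1 and 5.6 without and 3.4 and 3.2 with PBA in hIAPP islets (-2.70, SE 0.27, adjusted p = 0.0105). It was measured above background in untreated hIAPP islets only. Clec7a, the beta-glucan receptor of myeloid cells (-2.20), P2ry10, a receptor of lymphocytes (-2.25), Ces1d, a carboxylesterase (-3.50), Pfkfb3, an activator of glycolysis (-2.0), and Ppp1r14a, an inhibitor of myosin phosphatase (-2.0), passed as well, with adjusted p of at most 0.0437. The prostaglandin receptor gene Ptger3, named for the size of its interaction (-2.85), had a wild-type change of -0.30. In Cytl1, Cck, Ces1d, P2ry10, Ppp1r14a and Ptger3 the wild-type means were near background, so a fall in wild type could hardly be measured. With the mean of probe sets the interaction was -1.5 for Ptger3 and passed, and for Pfkfb3 it was -1.23 and did not pass.

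Some genes that beta cells normally keep silent were in this kind. Rest, the repressor of neuronal genes, was at 4.5 and 4.5 without and 4.6 and 4.8 with PBA in wild type, and at 6.2 and 6.1 without and 4.7 and 4.7 with PBA in hIAPP islets (interaction -1.65, SE 0.15, adjusted p = 0.0077). Its treated hIAPP arrays were within the wild-type range. Of its other probe sets 2 had the opposite sign, and the mean of its sets gave -0.53, which did not pass. Cat, catalase, was at 6.0 to 6.5 in wild type, at 7.8 and 7.9 without and 6.2 and 6.5 with PBA in hIAPP islets (-1.5, SE 0.26, adjusted p = 0.0395). These were the 2 of 18 genes of the disallowed list that passed (1.96% of all genes did). All 18 had an interaction below 0 (7596 of all 17097 genes did), with a median of -0.85. Over the mean of all probe sets of each gene the median was -0.35. Aldh1a3, a marker of dedifferentiated beta cells, was at 7.4 to 7.6 in wild type and at 9.5 to 9.9 in hIAPP islets under both treatments, and its interaction of -0.35 (95% interval -0.76 to 0.06) did not pass (adjusted p = 0.3856).

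The 10 genes higher in hIAPP islets only had smaller changes. Dock3, an exchange factor of Rac, was at 4.9, 5.1, 4.9 and 5.1 in wild type, and at 4.4 and 4.4 without and 5.4 and 5.5 with PBA in hIAPP islets (interaction 1.05, SE 0.17, adjusted p = 0.0316). Its treated hIAPP arrays were above every other array. Its other probe set had the opposite sign, and the mean of both gave 0.45, which did not pass. Pde10a, a phosphodiesterase, had the largest such interaction, 1.75 (SE 0.29, adjusted p = 0.0372), with a wild-type change of -0.40. Fh1, the fumarase of the citric acid cycle, was at 10.9 to 11.1 in wild type, at 10.5 and 10.5 without and 11.2 and 11.3 with PBA in hIAPP islets (0.85, SE 0.14, adjusted p = 0.0365). Ankrd37 (1.00), Rnf186 (0.80), Chn1 (0.75) and Sez6l (0.75) also passed.

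"Only" here states a p above 0.05 in wild type and not the absence of a change. The wild-type arrays overlapped between treatments in 147 of the 192 genes. Over all genes they did not overlap in 28.5%, so the count is close to that of all genes. The wild-type change was at most 0.15 in 121. Its 95% interval lay within 0.5 of 0 in 109, with a median half-width of 0.34. In 103 of the 192 the wild-type change had the sign opposite to that in hIAPP islets, in 68 the same sign, and in 21 it was 0. The lowest group mean was near background in 72 of the 192, where a fall could hardly be measured.

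**Figure D4:**
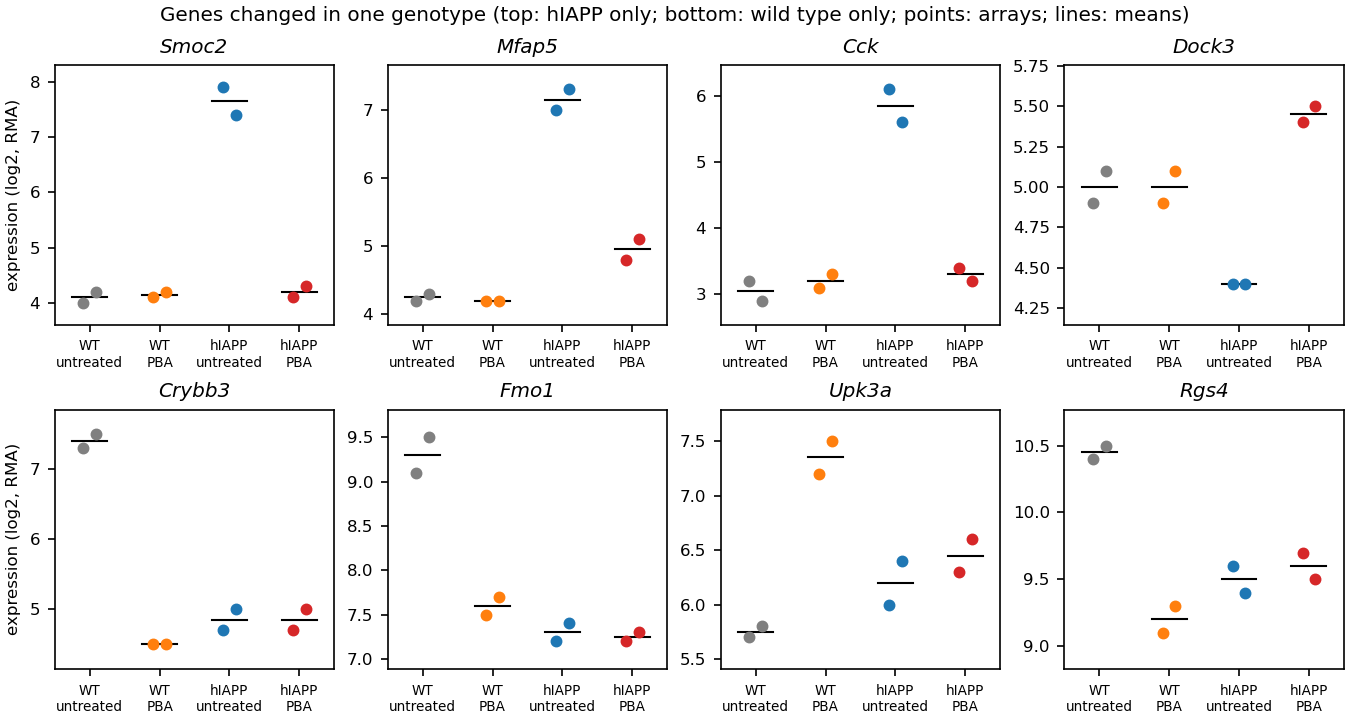
Expression (log2) on each array (points) with group means (lines) for 4 genes of the hIAPP-only kind (top) and 4 of the wild-type-only kind (bottom), with a separate vertical scale in each panel. In Smoc2, Mfap5 and Cck the untreated hIAPP arrays stand above the rest, and in Crybb3, Fmo1 and Rgs4 the untreated wild-type arrays do.

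The 17 genes that changed in wild-type islets only included the highest interaction of the 335 past the threshold. Crybb3, a crystallin, was at 7.3 and 7.5 without and 4.5 and 4.5 with PBA in wild type, and at 4.7, 5.0, 4.7 and 5.0 over the 4 hIAPP arrays. PBA thus took it in wild type to a level near background and under that of hIAPP islets, whose arrays overlapped between treatments. It fell by 2.90 in wild type (adjusted p = 0.0022), and the interaction was 2.90 (SE 0.21, adjusted p = 0.0071; limma).

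Fmo1, a flavin monooxygenase, was at 9.1 and 9.5 without and 7.5 and 7.7 with PBA in wild type, and at 7.2 to 7.4 over the hIAPP arrays (interaction 1.65, SE 0.22, adjusted p = 0.0220). Here too the untreated wild-type arrays stood above the rest. Rgs4, a brake on G-protein signalling, was at 10.4 and 10.5 without and 9.1 and 9.3 with PBA in wild type, and at 9.4 to 9.7 in hIAPP islets (1.35, SE 0.18, adjusted p = 0.0220). The iron-binding protein gene Lcn2 (1.40), the gasdermin gene Gsdma (1.5) and Nav3 of the cytoskeleton (1.20) were also lower with PBA in wild type, though Nav3 did not pass with the mean of its probe sets (0.77).

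Among those higher in wild type, Upk3a, a uroplakin, was at 5.7 and 5.8 without and 7.2 and 7.5 with PBA, against 6.0 to 6.6 in hIAPP islets (-1.35, SE 0.25, adjusted p = 0.05). Its treated wild-type arrays stood above the rest, and its p lay at the threshold. Sfrp5, an antagonist of Wnt (-1.45, adjusted p = 0.0345), Spon2, a matrix protein (-1.40, adjusted p = 0.0149), and Il1r2, the decoy receptor of interleukin-1 (-1.40, adjusted p = 0.0395), had wild-type changes of 1.5, 1.15 and 1.05. With the mean of probe sets Sfrp5 (-0.90) and Spon2 (-0.60) did not pass. In 11 of the 17 genes the hIAPP arrays overlapped between treatments. Over all genes they did not overlap in 43.5%, so this count too is close to that of all genes.

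The 30 genes that were lower in both genotypes held macrophage and chemokine genes. Mmp12, the macrophage elastase, was at 5.6 and 5.9 without and 4.3 and 4.7 with PBA in wild type, and at 9.1 and 8.9 without and 4.7 and 4.7 with PBA in hIAPP islets. It fell in both (adjusted p = 0.0423 and 1.8e-04), by 1.25 in wild type and by 4.30 in hIAPP islets, and the treated arrays of both genotypes reached similar levels close to background. Its interaction was -3.05 (SE 0.24, adjusted p = 0.0077). The chemokine gene Ccl9 (-1.65) likewise fell in both. Ccl21b (-2.65), the macrophage gene Gpnmb (-2.50), the fatty acid binding protein gene Fabp4 (-1.30) and Cd74 of antigen presentation (-1.0) were lower in both. Treated wild type was near background in Ccl9 (4.20), Ccl21b (4.05) and Gpnmb (4.65), so a larger fall there could hardly be measured. The p of Gpnmb lay at the threshold (limma, adjusted p = 0.05). S100a8, a calprotectin subunit of neutrophils, was one of the 2 of the 30 with an interaction above 0 (1.75, SE 0.23, adjusted p = 0.0211). It fell from 6.6 and 7.0 to 3.9 and 3.8 in wild type and from 5.5 and 5.6 to 4.5 and 4.2 in hIAPP islets, so its larger measured fall was in wild type. Its treated means were near background in wild type (3.85) and in hIAPP islets (4.35). The hIAPP islets started lower, so a larger fall there could hardly be measured.

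Of 31 macrophage markers 2 passed, Mmp12 and Gpnmb (1.96% of all genes passed). The median interaction was -0.40, from median changes of -0.60 in wild type and -1.20 in hIAPP islets. With the acinar covariate the median was -0.77. The lysozyme gene Lyz2 changed by -0.60 in each. Of 10 genes of MHC class II 2 passed, Cd74 and H2-Ab1 (-0.95, adjusted p = 0.0484), with a median of -0.65. Of 25 chemokine genes 2 passed, with a median of -0.55.

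**Figure D5:**
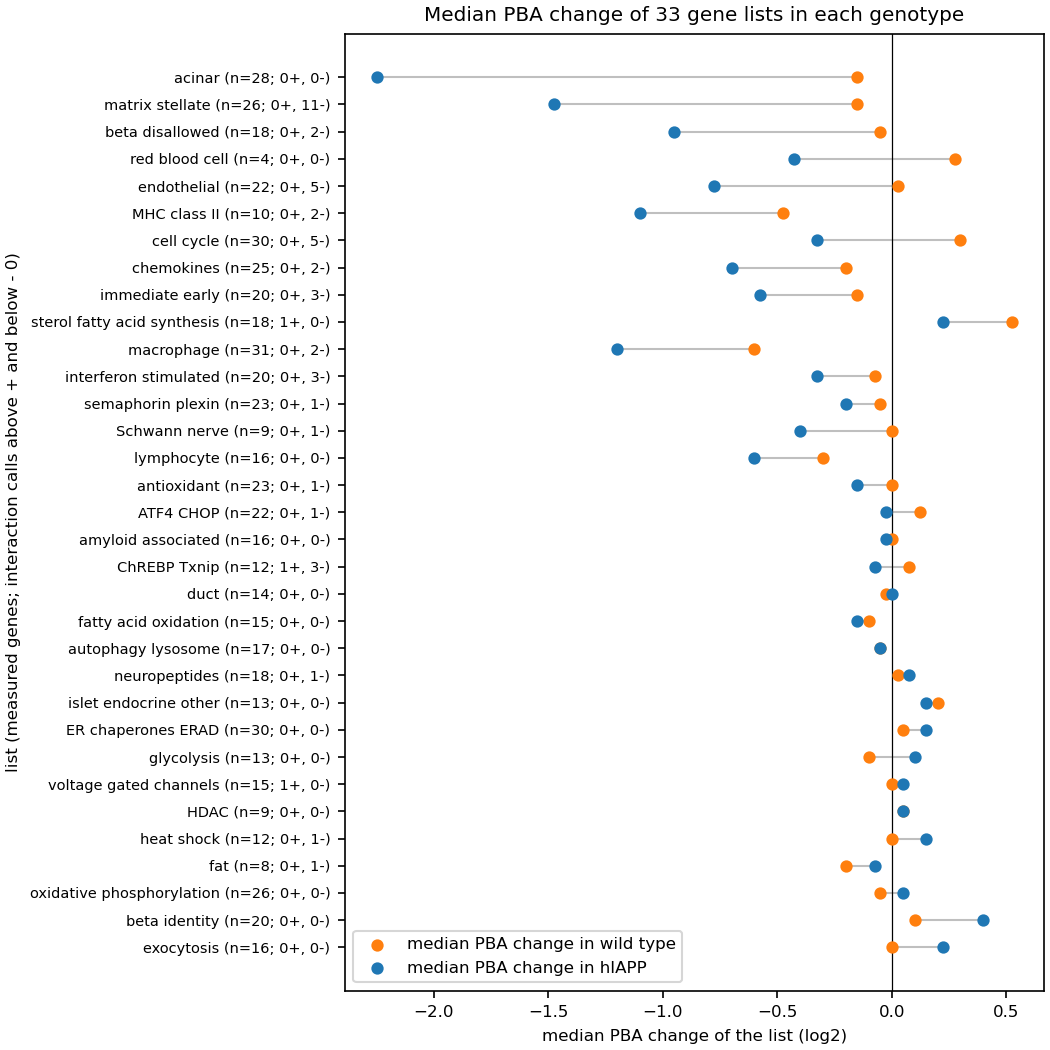
Median PBA change (log2) of each of 33 gene lists in wild-type islets (orange) and hIAPP islets (blue), ordered by the median interaction, with the number of measured genes and of interaction calls above and below 0 beside each name. The acinar and matrix lists have the widest gaps, with blue left of orange, and the beta identity and exocytosis lists lie at the other end.

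Untreated hIAPP islets stood apart from the wild-type range more often than treated ones among the 335 genes. Both untreated hIAPP arrays were above all 4 wild-type arrays in 265 genes, below in 26 and within their range in 30. Both treated hIAPP arrays were above in 66, below in 26 and within in 167. These ranges were not counted over all genes, so how far the counts depart from the background is not known. Without treatment 322 of the 335 genes differed between the genotypes past the threshold (11% of all genes), and under PBA 14 did (0.415%). These contrasts share all their arrays with the interaction, so no separate support is drawn from them.

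Markers of other cells moved with these results. The matrix, endothelial and macrophage lists were lower in treated than in untreated hIAPP islets, as given above, and so was the acinar list, whose median PBA change was -2.25 in hIAPP and -0.15 in wild-type islets. Of its 28 genes, 0 passed for the interaction (limma) and 10 had an unadjusted p under 0.05, and 25 were below 0. Of all 17097 genes, 2777 had such a p and 7596 were below 0. The enzyme gene Cpa1 was at 12.6, 11.2, 12.2 and 11.2 in wild type, at 11.8 and 12.7 without and 9.4 and 10.8 with PBA in hIAPP islets, an interaction of -1.95 (95% interval -4.06 to 0.16, adjusted p = 0.3369). The treated hIAPP arrays were below all others, and arrays of one group differed by up to 1.4. Prss2, a trypsinogen gene, was similar (-2.30, adjusted p = 0.2830). Of the 28 genes, 3 had a mean near background. The covariate fit above used the acinar level alone. The part of exocrine or other cells in the interaction was not tested.

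Reg2, a member of the regenerating family on the acinar list, went the other way from its list. It was at 10.8 and 9.6 without and 5.9 and 4.9 with PBA in wild type, and at 5.9 and 8.1 without and 7.3 and 9.3 with PBA in hIAPP islets. The wild-type arrays did not overlap and the hIAPP arrays did. Its interaction of 6.10 (SE 1.25) did not pass (adjusted p = 0.0638), while with the acinar covariate it was 8.82 and passed. Reg3b, of the same family and picked after its values were seen, was at 10.4 and 9.5 without and 5.1 and 5.4 with PBA in wild type, and at 5.1 and 9.0 without and 7.2 and 9.1 with PBA in hIAPP islets (interaction 5.80, SE 1.65, adjusted p = 0.1432).

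PBA is known for its actions on ER folding and on histone deacetylases, and genes of both were read for a dependence on genotype. Of 30 genes of ER chaperones and degradation 0 passed (limma), 3 with an unadjusted p under 0.05, with a median interaction of 0.10. Hspa5, the main ER chaperone, was at 11.4, 11.5, 11.2 and 11.5 in wild type and at 11.6, 11.6, 11.8 and 11.7 in hIAPP islets, so the treated and untreated arrays of wild type overlapped. Its interaction was 0.25 (95% interval -0.16 to 0.66, adjusted p = 0.5336). Atf4, the transcription factor of the integrated stress response, was at 10.7 and 10.7 without and 11.0 and 11.1 with PBA in wild type, and at 10.5 and 10.6 without and 11.1 and 11.1 with PBA in hIAPP islets. It was thus higher with PBA in either genotype, with an interaction of 0.20 (-0.12 to 0.52, adjusted p = 0.5138). Ddit3, which codes for the stress factor CHOP, was at 0.05 (-0.34 to 0.44), Xbp1 at -0.15 (-0.50 to 0.20) and Trib3 at -0.15 (-0.74 to 0.44). Of 22 genes of the ATF4 and CHOP list 1 passed, Ddit4. Of 9 histone deacetylase genes 0 passed (limma), 3 with an unadjusted p under 0.05, against 2777 of all 17097 genes. Hdac1 and Hdac2 were at 0.00 each (-0.47 to 0.47 and -0.40 to 0.40). Hdac9 was at -1.25 (limma, adjusted p = 0.0648), Hdac5 at -0.45 (0.2192) and Hdac6 at 0.50 (0.2705), and these were picked after their values were seen.

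The hormone genes had narrow intervals. Ins2 had an interaction of -0.05 (-0.38 to 0.28) at the top of the scale, where the highest value of the table was 14.1. Gcg was at -0.10 (-0.46 to 0.26), Sst at 0.10 (-0.32 to 0.52) and Ppy at 0.35 (0.02 to 0.68, adjusted p = 0.2705). None passed.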

How the data were processed

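Islet RNA was hybridised by the authors to 8 Affymetrix arrays, and the deposited table holds 1 log2 value per probe set and array, rounded to 1 decimal. The authors made these log2 values with RMA (background correction, quantile normalisation, probe summary) of the affy package, per the submitters' processing notes, with no version given. Scanner files were not used here, so background correction and scan batch were not varied. Of 45141 probe sets 104 were controls. Of the other 45037, 28898 named 1 gene symbol, 551 several and 15588 none. Where several named 1 gene (7180 genes), the set with the highest mean stood for it, which gave 17097 genes, 17055 of them with a RefSeq symbol. Among called genes, 37 of the 175 with several sets had one of opposite sign, those in the text being Nr4a3, Rest, Spon2, Dock3, Pgap6, Cenpa, Pttg1 and Pclaf.

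limma 3.58.1 in R 4.3.3 fitted the 4 group means with no covariate (4 residual and 3.27 prior degrees of freedom, prior SD 0.13), and the interaction was a contrast, tested two-sided with Benjamini-Hochberg adjustment over all genes at 0.05. SE is that of the fit. Signed values are log2 and positive where the PBA change was higher in hIAPP islets. The arrays' number, rounding and background limit precision. Python 3.11.15 with pandas 2.3.3 served for tables.

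The members and the 33 gene lists (664 genes, 584 measured) were chosen with earlier results of these data known. Genes were named by rule. It took the 10 largest interactions of each sign among genes past the threshold, the 10 opposite genes of each orientation with the largest smaller change, the 10 wild-type-only genes with the largest change, the 10 largest hIAPP-only rises and falls with a wild-type change of at most 0.15, and up to 3 genes past the threshold of each list. It also took a fixed set of hormone, beta-cell, stress, acinar and deacetylase genes in any case. Predicted and small RNA genes, 7 of those called, were counted and not named. Picked outside the rule after their values were seen were Fbln5, Cdc20, Cdkn1a, Ccnb2, Postn, Lox, Col5a1, Col6a3, Fstl1, Timp1, Sparc, Acta2, Col12a1, Col1a1, Col1a2, Eng, Vwf, Kdr, Flt1, Lyz2 and Reg2, besides those marked in the text.

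Alternatives varied the probe set rule, the filter, the normalisation, the moderation of the spread, an acinar covariate, the replicate number as a block, the arrays left out and the thresholds.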

Additional observations from a re-analysis of the deposited data

Results flagged for a closer look

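The genes below are set out because the same treatment had effects that differed between the 2 genotypes by the test of the difference itself, the limma interaction at an adjusted p under 0.05. Each value is the PBA change in hIAPP islets minus that in wild-type islets, on the log2 scale. With any 1 array left out 0 to 3 genes passed, Arrdc4 and Iigp1 in the fit without PBA-treated hIAPP 2 and Col8a1 in the fit without PBA-treated wild type 2, where it was counted as opposite and not as hIAPP-only.

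Opposite changes, lower in hIAPP and higher in wild type, were measured in genes of dividing cells at -2.95 (Top2a), -2.90 (Ube2c), -2.85 (Pbk), -2.60 (Mki67), -2.50 (Cks2) and -2.25 (Cdk1). Stress and metabolic genes of that kind were at -3.05 (Arrdc4), -2.05 (Vnn1), -1.85 (Ndrg2), -1.25 (Ddit4) and -1.25 (Bag3). Interferon and immediate early genes were at -2.45 (Iigp1), -2.15 (Rsad2), -1.25 (Nr4a1) and -1.25 (Klf4). The turned orientation was measured at 2.35 (Car15), 1.75 (Kcnf1), 1.65 (Erich6), 1.60 (Shisal2b), 1.55 (Actn3), 1.5 (Atp4a), 1.40 (Pgap6), 1.15 (Abraxas1), 1.10 (Elovl6) and 1.10 (Nfasc).

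A fall in hIAPP islets only was measured in matrix and vessel genes at -3.50 (Smoc2), -2.55 (Col8a1), -2.15 (Mfap5), -1.65 (Col6a2), -1.30 (Col4a1), -1.30 (Tek) and -1.15 (Cdh5), and in the sodium channel gene Scn7a of nerve sheath at -1.55 (-0.93 with the mean of its probe sets, which did not pass) and the semaphorin receptor gene Plxnd1 at -1.15. Secreted proteins and receptors were at -3.55 (Cytl1), -2.85 (Ptger3), -2.70 (Cck), -2.25 (P2ry10) and -2.20 (Clec7a). Enzymes and regulators were at -3.50 (Ces1d), -2.10 (Nr4a3), -2.0 (Pfkfb3), -2.0 (Ppp1r14a), -1.65 (Rest), -1.55 (Txnip) and -1.5 (Cat), and immune genes at -1.10 (Gbp2) and -0.95 (H2-Ab1). Rises in hIAPP islets only were at 1.75 (Pde10a), 1.05 (Dock3), 1.00 (Ankrd37), 0.85 (Fh1), 0.80 (Mlx), 0.80 (Rnf186), 0.75 (Chn1) and 0.75 (Sez6l).

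Changes in wild type only were measured at 2.90 (Crybb3), 1.65 (Fmo1), 1.5 (Gsdma), 1.40 (Lcn2), 1.35 (Rgs4) and 1.20 (Nav3), where treated wild-type islets were lower, and at -1.45 (Sfrp5), -1.40 (Spon2), -1.40 (Il1r2) and -1.35 (Upk3a), where they were higher. Falls in both genotypes of unequal size were at -3.05 (Mmp12), -2.65 (Ccl21b), -2.50 (Gpnmb), -1.65 (Ccl9), -1.5 (Klf10), -1.30 (Fabp4) and -1.0 (Cd74), larger in hIAPP islets, and at 1.75 (S100a8), larger in wild type. Treated wild type was near background in Mmp12, Ccl21b, Gpnmb and Ccl9, as were treated islets of both genotypes in S100a8. This limits the falls that could be measured.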

How the results depend on the processing

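The interaction gave 335 genes, of which 96 were opposite, 192 hIAPP-only and 17 wild-type-only. With an intensity trend these were 576, 152, 332 and 50, with the acinar covariate 4, 3, 0 and 0, and with the first treated array of each genotype left out together 0, 0, 0 and 0 (2556 genes at an unadjusted limma p under 0.05). Leaving out 1 array gave 0 to 3, 0 to 2, 0 to 1 and 0. At an adjusted p under 0.01, 26 genes passed. Centring the arrays left 122 hIAPP-only genes, leaving out dim genes gave 437 genes with 36 wild-type-only ones, an adjusted p in each genotype left 7 opposite genes, and the rule of arrays that do not overlap left 11 wild-type-only genes. The other alternatives, namely the mean of probe sets, all probe sets, repeated quantile normalisation, robust moderation and an interaction of at least 1, gave 290 to 441 genes. Cause was not tested, beyond that fits without an array have 3 residual degrees of freedom, or 2 without both.

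The sign of the interaction was kept for 335 of 335 genes in each alternative that gives a value per gene, except that without dim genes 285 were measured and 285 kept it. Their selection favours this. List medians that moved included the endothelial list (-0.58 after centring), the macrophage list (-0.77 with the acinar covariate), the chemokine list (-1.23 without dim genes), the acinar list (0.08 with its own covariate, and -3.10 to -1.43 without 1 array), and the exocytosis list (0.18 with the covariate). The median of the beta identity list was 0.53 after centring, and that of oxidative phosphorylation 0.40. The median of the disallowed list was -0.35 with the mean of probe sets.

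With the replicate number as a block 118 genes passed, with 47 opposite, 54 hIAPP-only and 5 wild-type-only. The same-numbered arrays did not deviate together (correlation -0.14 to 0.10), so the number does not pair them. Dim genes rest on levels near background, as 108 of the 335 do in their lowest group. A change of 0.75 was the smallest called.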

Other observations

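Genes of beta-cell identity and of exocytosis had small positive interactions and 0 passed the threshold (limma), while 6 identity and 5 exocytosis genes had an unadjusted p under 0.05. Of 20 measured identity genes 19 were above 0, with a median of 0.33 against 0.00 for all genes, and a median PBA change of 0.10 in wild type and 0.40 in hIAPP islets. Ucn3, a marker of mature beta cells, was at 11.7 and 11.8 without and 11.4 and 11.7 with PBA in wild type, and at 10.9 and 10.9 without and 11.4 and 11.4 with PBA in hIAPP islets (interaction 0.70, SE 0.17, adjusted p = 0.0984). Sytl4, which tethers insulin granules, had an interaction of 0.65 (adjusted p = 0.0849), and the transcription factor gene Pdx1 and the glucose transporter gene Slc2a2 had interactions of 0.35 and 0.25 (adjusted p = 0.3856 and 0.5678). Of 16 exocytosis genes 14 were above 0, with a median of 0.35. Of 26 genes of oxidative phosphorylation 21 were above 0, with a median of 0.20, and 0 passed (limma), 3 of them with an unadjusted p under 0.05. Members of a list were measured on the same arrays and are not independent. Over all 17097 genes, 2777 had an unadjusted p under 0.05 and 8382 had an interaction above 0. Ucn3 and Sytl4 were picked after their values were seen.

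The list of sterol and fatty acid synthesis was the one of the 33 with more members raised by PBA in wild type than in hIAPP islets. Of 18 genes, 4 rose in wild type past the threshold (0.146% of all genes rose there) and 2 in hIAPP islets (1.78%), and the median change was 0.53 and 0.23. Insig1, a sterol sensor, was at 8.7 and 8.8 without and 9.7 and 9.7 with PBA in wild type, and at 9.0 and 9.2 without and 9.2 and 9.4 with PBA in hIAPP islets. The wild-type arrays were well apart and the hIAPP arrays met at 9.2. Its interaction of -0.75 (SE 0.17) did not pass (adjusted p = 0.0777), nor did those of Idi1 (-0.90, adjusted p = 0.0649), Sc5d (-0.65, adjusted p = 0.0586), Fdft1 (-0.55, adjusted p = 0.0902) and Cyp51 (-0.55, adjusted p = 0.1436), enzymes of the pathway. The difference between the genotypes is thus not shown for these genes. The 1 member of the list that passed, Elovl6, had the other sign (limma interaction 1.10, adjusted p = 0.0172). It changed by 0.60 in hIAPP islets and by -0.50 in wild type. In the list 13 genes had an interaction below 0 and 5 above it. Insig1, Idi1, Sc5d, Fdft1 and Cyp51 were picked after their values were seen.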
